A study of Mus musculus with 6 samples.

Results

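The mitochondrially encoded genes are the genes carried by mitochondrial DNA itself. They were taken from 2 tables of the same tumours as every row whose gene name starts with MT- in the human table or mt- in the mouse table. The rule found 37 human and 37 mouse genes, 74 of 114420 named genes (58884 human and 55536 mouse). In each species these are 13 genes for proteins, 2 for ribosomal RNA (rRNA) and 22 for transfer RNA (tRNA). The rule used names only, no measured value, though it was set with earlier results of these data known.

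The tumours were subcutaneous xenografts of DU145, an established human prostate cancer cell line, in male nude mice, which lack a thymus and so most T cells. The control group held 3 tumours and the Zelnorm group held 3. Zelnorm is a trade name of tegaserod, an agonist of a serotonin receptor, and was given daily by mouth at a dose that the labels used here do not state. All 6 tumours share the cell line, the site and the host, and the ages of the mice are not given. The titles of the treated samples carry MBZ where the treatment label reads Zelnorm, and the group follows the treatment label. Libraries are called by their column names, NC10, NC4 and NC9 for control and MBZ_254, MBZ_257 and MBZ_259 for Zelnorm. No label ties a tumour to a named animal. P-values therefore measure the spread between these 6 samples, part of which may be technical.

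Mitochondrial DNA is a small circle present in many copies per cell. Each strand is transcribed as a long precursor, and tRNAs between the other genes mark where the precursor is cut. The 13 proteins are core subunits of the respiratory chain and of ATP synthase, and the rRNAs build the ribosome that translates them inside the organelle. All other proteins of mitochondria, including those that copy, transcribe and translate this DNA, are made from nuclear genes. Fragments of mitochondrial DNA have also been inserted into nuclear chromosomes, where they lie as pseudogenes that can be nearly identical to the genes they came from.

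Such copies bear on the mouse values, so the sequences come first. In the GENCODE vM21 annotation of GRCm38, 7 pseudogenes of mitochondrial genes matched over at least 250 bases with at least 99% identity. All 7 lie in a block on the minus strand of chromosome 1. Gm28661 (chr1:24614885-24615565) matched mt-Co2 (chrM:7013-7696) over 681 bases with 0 mismatches, and Gm10925 matched mt-Atp6 over 678 bases with 0. Gm28437 matched mt-Co3 over 783 bases with 0 mismatches, Gm10222 matched mt-Nd4l over 294 with 0 and Gm28439 matched mt-Nd4 over 876 with 0. Gm28438 matched mt-Nd3 over 345 bases with 1 mismatch and Gm29216 matched mt-Co1 over 483 with 1.

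The stretches below show why reads from these genes have 2 possible homes. They were read from GRCm38, 5′ to 3′ along the mitochondrial gene, and capitals mark the bases at which any of the aligned sequences differ. The mt-Co2 stretch is chrM:7457-7546 on the plus strand. Its near-identical copy is chr1:24615032-24615121 on the minus strand, and a more diverged copy, Gm13341, is chr2:22587441-22587530 on the minus strand.
mt-Co2: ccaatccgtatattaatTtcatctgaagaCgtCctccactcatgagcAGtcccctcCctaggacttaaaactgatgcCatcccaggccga
Gm28661: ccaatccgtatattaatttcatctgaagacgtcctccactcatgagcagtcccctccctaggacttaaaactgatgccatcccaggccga
Gm13341: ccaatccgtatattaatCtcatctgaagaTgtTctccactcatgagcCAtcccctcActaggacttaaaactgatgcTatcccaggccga
Over these 90 bases Gm28661 had 0 differences, so it is printed without capitals. Gm13341 had 7, written as T462C, C474T, C477T, A492C, G493A, C501A and C522T, with positions counted from 1 at the 5′ end of mt-Co2.
The single difference between mt-Nd3 (chrM:9459-9518, plus strand) and Gm28438 (chr1:24613060-24613119, minus strand) is T3C, and the rest of these 60 bases is shared.
mt-Nd3: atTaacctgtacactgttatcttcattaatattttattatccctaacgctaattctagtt
Gm28438: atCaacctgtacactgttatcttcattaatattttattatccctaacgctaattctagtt
The single difference between mt-Co1 (chrM:6390-6449, plus strand) and Gm29216 (chr1:24616129-24616188, minus strand) is A1066T.
mt-Co1: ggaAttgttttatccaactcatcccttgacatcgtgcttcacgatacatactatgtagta
Gm29216: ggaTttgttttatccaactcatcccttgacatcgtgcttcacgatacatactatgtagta

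Most counts of 5 mouse mitochondrial mRNAs stood on the row of the nuclear copy. The row of mt-Co2, the gene of a core subunit of cytochrome c oxidase, held 0, 0 and 206 counts in NC10, NC4 and NC9 and 175, 0 and 196 in MBZ_254, MBZ_257 and MBZ_259. Its copy Gm28661 held 9056, 10298 and 13854 counts in the controls and 10484, 5464 and 16105 in the Zelnorm libraries. The mitochondrial row therefore kept 0% to 1.64% of the summed counts of the pair, and 3 of 6 libraries listed it at 0.

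The same division was seen for 4 more genes. The mitochondrial row kept 0% to 8.23% for mt-Atp6, a subunit of ATP synthase, and 0.0367% to 16.9% for mt-Co3, another core subunit of cytochrome c oxidase. It kept 3.68% to 9.73% for mt-Nd3 and 2.10% to 12.8% for mt-Nd4l, both subunits of complex I, the NADH dehydrogenase of the respiratory chain. The shares scattered between libraries of both groups. In NC10 the mt-Co3 row held 4 counts and in NC4 it held 1405, against 9701 and 7944 on the copy.

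In contrast, mt-Co1, the catalytic subunit of cytochrome c oxidase, kept 91.2% to 96.5% beside its partial copy Gm29216. The row of mt-Nd4 kept all its counts, since Gm28439 was listed at 0 in every library although it is identical over 876 bases. The diverged copies were nearly empty. Gm13341 held 1.01 counts over the 6 libraries, and Gm13340, on chromosome 2 with 37 mismatches to mt-Co1, held 1. Reads of a gene and an identical copy cannot be told apart by sequence, so the levels of these 7 mouse genes are uncertain as deposited. They are given below with the copy added as well, an alternative chosen after the values were seen.

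**Figure D1:**
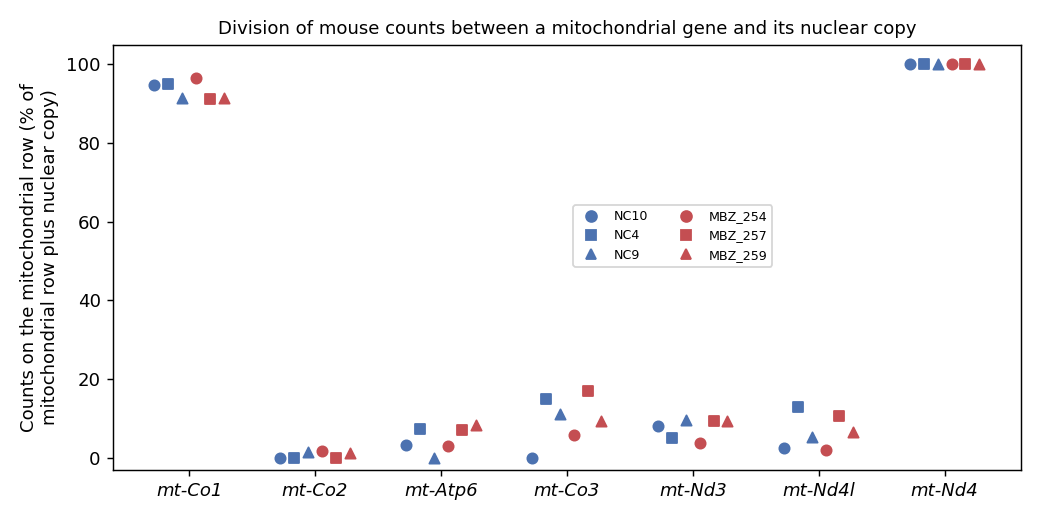
Percent of the summed counts of a mouse mitochondrial gene and its nuclear copy that stood on the mitochondrial row (vertical axis), for 7 genes (horizontal axis) in 6 libraries (blue control, red Zelnorm, 1 marker per library). The rows of mt-Co2, mt-Atp6, mt-Co3, mt-Nd3 and mt-Nd4l kept at most 16.9% in any library, those of mt-Co1 at least 91.2%.

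The human table showed this on a smaller scale. Its 407 rows named as pseudogenes of mitochondrial genes, or as MTRNR2L genes, held 0.707% to 0.811% of the mitochondrial and copy counts together, and 303 of them were at 0 in all libraries. In the mouse the 7 copies held 28.0% to 33.2%. The human exception was MT-ATP6, which kept 85.4% to 87.4% beside MTATP6P1 and other copies. MTATP6P1, MTCO1P12 and MTRNR2L1 held the most counts among the human copy rows.

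The mitochondrial mRNAs took up several percent of the human counts in every tumour. Shares are percent of the counts of all named genes of a table. The 13 human protein-coding genes together held 5.66% in NC10, 7.27% in NC4 and 6.79% in NC9, and 5.95% in MBZ_254, 7.56% in MBZ_257 and 6.66% in MBZ_259. The Zelnorm libraries lay on either side of the controls, with 6.72% ± 0.807 (SD, n = 3) against 6.57% ± 0.826 (SD, n = 3). No test is given for shares, since an exact permutation test of 3 against 3 cannot go below p = 0.1. In these bulk tumours, a change in the number of cells and a change in RNA per cell cannot be told apart.

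The human rRNAs MT-RNR1 and MT-RNR2 held less. Their summed share was 0.593%, 0.632% and 0.802% in NC10, NC4 and NC9, and 0.638%, 0.830% and 1.35% in MBZ_254, MBZ_257 and MBZ_259. MBZ_259 stood above all other libraries, and the groups overlapped. The group means were 0.676% ± 0.111 (SD, n = 3) in control and 0.941% ± 0.370 (SD, n = 3) in Zelnorm, a log2 ratio of 0.48 that ranged from 0.12 to 0.69 when a library was left out.

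The mouse shares were lower. As deposited, the 13 mouse protein-coding genes held 0.861%, 0.874% and 0.877% in NC10, NC4 and NC9, and 0.881%, 0.539% and 1.07% in MBZ_254, MBZ_257 and MBZ_259. With the copies added these became 1.30%, 1.22% and 1.32% in control and 1.29%, 0.806% and 1.58% in Zelnorm. The controls were close together, while the Zelnorm libraries included the lowest and the highest of the 6. The means with copies were 1.28% ± 0.0542 (SD, n = 3) and 1.23% ± 0.392 (SD, n = 3). The log2 ratio of the deposited shares, -0.071, ranged from -0.29 to 0.16 when a library was left out. The deposited share of MBZ_257, 0.539%, had a 95% Wilson interval of 0.533% to 0.545%, which covers counting error only.

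The mouse rRNAs held 0.0288%, 0.0202% and 0.0295% in the controls and 0.0210%, 0.0356% and 0.0478% in MBZ_254, MBZ_257 and MBZ_259. Here MBZ_259 was again the highest library, and MBZ_254 lay among the controls. The means were 0.0262% ± 0.00516 (SD, n = 3) and 0.0348% ± 0.0134 (SD, n = 3), a log2 ratio of 0.41 that ranged from 0.11 to 0.67 when a library was left out.

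**Figure D2:**
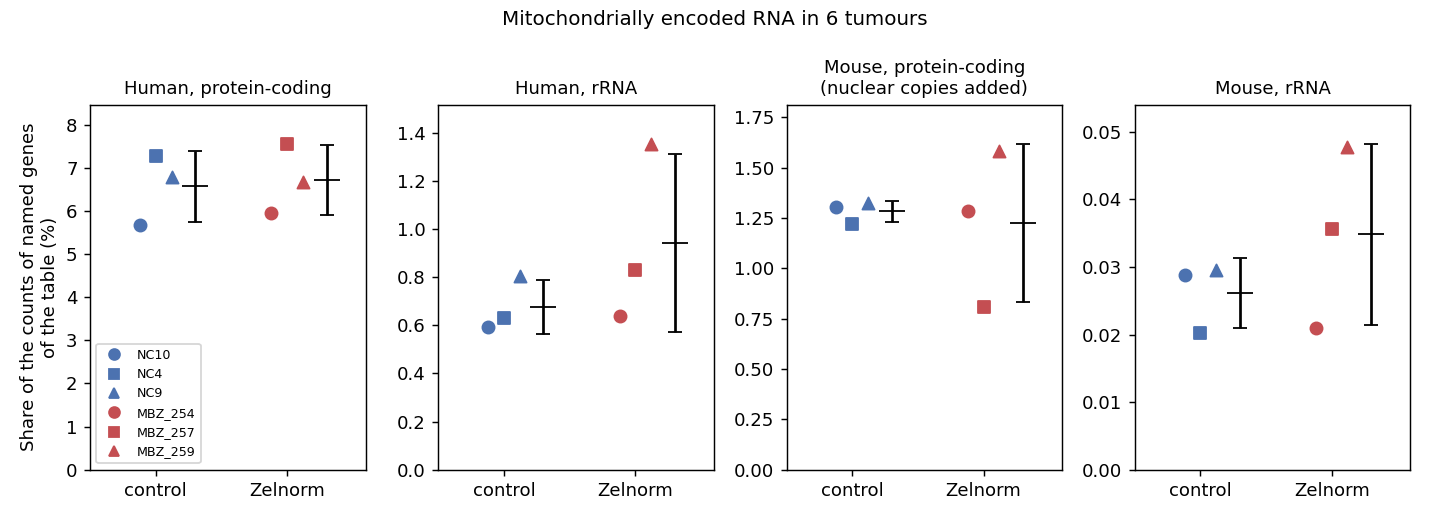
Share of the counts of named genes of a table (vertical axes from 0, in percent) held by mitochondrial protein-coding and rRNA genes in 6 tumours (horizontal axis by group, 1 marker per library), with the mean and SD (n = 3) in black. The human protein-coding share lies between 5.66% and 7.56%, the mouse share with copies between 0.806% and 1.58%.

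Transcripts of tRNA genes were all but absent from the tables. All 22 mouse tRNA genes were at 0 in all 6 libraries, and 0 of 5798742 to 9185279 counts allows a summed share of up to 5.17e-05% in the shallowest library and 3.27e-05% in the deepest. Of the 22 human tRNA genes 14 were at 0 in all libraries and the summed share was 0.000586% to 0.00106%. The 4 with the highest mean counts were MT-TC, MT-TS1, MT-TA and MT-TQ, the tRNAs for cysteine, serine, alanine and glutamine.

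MT-TC held 86, 95 and 140 counts in NC10, NC4 and NC9 and 131, 116 and 96 in MBZ_254, MBZ_257 and MBZ_259, while MT-TQ held at most 10 in any library. These tRNA values overlapped between the groups. MT-TC, MT-TS1 and MT-TA passed the filter on low counts and had log2 fold changes of 0.14 (SE 0.26), 0.26 (SE 0.33) and 0.34 (SE 0.55).

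The ratio of rRNA to mRNA counts differed between the species' tables. For every 100 human protein-coding mitochondrial counts there were 10.5, 8.69 and 11.8 rRNA counts in the controls and 10.7, 10.99 and 20.3 in MBZ_254, MBZ_257 and MBZ_259. In the mouse, with copies added, there were 2.21, 1.66 and 2.23 in the controls and 1.63, 4.42 and 3.02 in the Zelnorm libraries. The human ratio was above the mouse ratio in all 6 tumours, and the value of MBZ_259 set it apart from the other human values. These are ratios of counts. The part of library preparation in these and the other rRNA and tRNA values was not tested.

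Within the rRNAs the large subunit RNA prevailed. MT-RNR2 held 8.80, 8.21 and 9.73 counts per count of MT-RNR1 in the controls and 8.47, 9.26 and 13.8 in the Zelnorm libraries. In the mouse mt-Rnr2 (chrM:1094-2675) held 2.36, 3.82 and 3.99 counts per count of mt-Rnr1 (chrM:70-1024) in the controls and 2.45, 7.36 and 5.21 in the Zelnorm libraries. The genes are cut from the same precursor in a known order, with the small subunit RNA ahead of the large.

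The next comparison asked which mitochondrial genes took a larger part of the human table than of the mouse table. The counts of each table were scaled to that table's own total, so a difference is one between shares of 2 tables and not an amount per cell. The human protein-coding share over the mouse share was 6.58, 8.32 and 7.73 in the controls and 6.75, 14.02 and 6.24 in the Zelnorm libraries as deposited. With copies added it was 4.38, 6.005 and 5.17 in the controls and 4.66, 9.44 and 4.24 in the Zelnorm libraries. The highest value in either case was MBZ_257, in which mouse counts made up 15.1% of both tables, against 19.0% to 23.4% in the other 5 tumours.

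A fit across 11130 gene pairs that share a symbol, with the library as a block, called 49.6% of all pairs higher in the human table and 35.6% lower (edgeR, Benjamini-Hochberg). With copies added, all 15 mitochondrial rRNAs and mRNAs were called higher in the human table. The log2 difference was largest for MT-RNR2, at 4.95 (SE 0.17, adjusted p = 1.23e-09), and smallest for MT-CYB, cytochrome b of complex III, at 1.41 (SE 0.16, adjusted p = 1.07e-05). The median of all pairs was 0.25. Since most pairs are called in such a fit, the size of a difference says more than its call, and MT-CYB had 78.3% of all pairs below it while MT-RNR2 had 99.5%.

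The subunits of complex I spread widely. MT-ND5 differed by 3.85 (SE 0.18), MT-ND3 by 3.30 (SE 0.17) and MT-ND4 by 3.26 (SE 0.19), whereas MT-ND1 differed by 1.62 (SE 0.16). Among the core subunits of cytochrome c oxidase, MT-CO1 differed by 2.53 (SE 0.20), MT-CO2 by 1.85 (SE 0.17) and MT-CO3 by 1.44 (SE 0.16). The ATP synthase subunits MT-ATP8 and MT-ATP6 differed by 2.34 (SE 0.16) and 1.64 (SE 0.17). All values are log2 differences in level between the tables with copies added. As deposited, without the copies, the differences were 9.41 (SE 0.89) for MT-CO2, 7.04 (SE 0.26) for MT-ND3, 6.59 (SE 0.32) for MT-ND4L, 6.25 (SE 0.64) for MT-ATP6 and 5.31 (SE 0.66) for MT-CO3. The value of MT-CO2, whose mouse row was at 0 in 3 libraries, lay between 8.82 and 9.77 when another library than NC9 was left out and was 14.04 without NC9. Leaving out a library gave 5.68 (without NC9) to 6.78 for MT-ATP6 and 4.70 (without NC10) to 5.87 for MT-CO3.

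To compare genes with each other, counts were divided by gene length. No human lengths were used here, so each human gene was divided by the length of its mouse counterpart. With copies added, MT-CO1 had the highest level of the 13 mRNAs in the human table and mt-Co1 in the mouse table. They made up 25.3% and 21.5% of the summed per-kilobase level (means of 6 libraries).

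**Figure D3:**
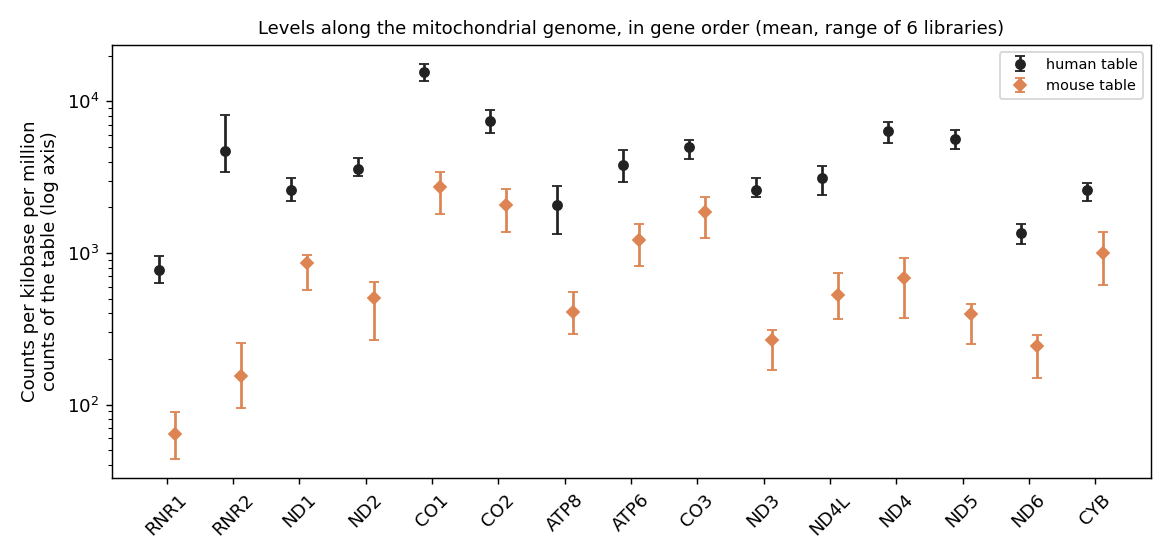
Counts per kilobase, scaled to the counts of the table (vertical log axis) for the rRNAs and mRNAs in the order of the genes on mitochondrial DNA (horizontal axis), with nuclear copies added. Points are means and bars the range of 6 libraries. CO1 is the highest mRNA in both tables, and every human mean lies above its mouse counterpart.

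The make-up of the mRNAs differed between the tables. The 6 human and 6 mouse shares of the summed per-kilobase level did not overlap for 10 of 13 genes, 5 with the human share above and 5 below. This was read from the ranges, with no test, and the libraries of the same tumour give a value to each side. The human share was above for MT-CO1, MT-ND2, MT-ND3, MT-ND4 and MT-ND5. MT-ND5 made up 9.17% of the human level and 3.10% of the mouse level, and MT-ND4 made up 10.3% and 5.29%.

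The human share was below for MT-ND1, MT-CO2, MT-ATP6, MT-CO3 and MT-CYB. MT-CO3 made up 8.09% of the human level and 14.6% of the mouse level. MT-CO2 made up 12% and 16.3%, MT-ATP6 6.14% and 9.59%, and MT-CYB 4.20% and 7.74%. For MT-ATP8, MT-ND4L and MT-ND6 the libraries of the tables overlapped. Along the circle the genes with a lower human share included CO2, ATP6 and CO3, which follow each other apart from ATP8. Those with a higher human share included ND3, ND4 and ND5, which follow each other apart from ND4L.

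The picture depended on the copies. As deposited, mt-Co1 made up 37.0% of the mouse level and mt-Co2 made up 0.217%, so that MT-CO1 had the lower human share, MT-CO2 the higher and 11 of 13 genes did not overlap. MT-ATP6 (5.36% human, 0.828% mouse) and MT-CO3 (8.17% human, 2.52% mouse) then also had the higher human share. MT-ND4 (10.4% human, 9.73% mouse) and MT-ND2 overlapped. The runs of neighbouring genes given above were thus seen only with copies added. Neighbouring genes also overlap on the DNA, as mt-Atp8 with mt-Atp6 (chrM:7766-7969 and chrM:7927-8607) and mt-Nd4l with mt-Nd4. The gene of ND6, a further complex I subunit, lies on the other strand. The sources used here do not say whether reads were counted by strand, so counts of these genes cannot be told apart from those of overlapping or opposite transcripts.

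**Figure D4:**
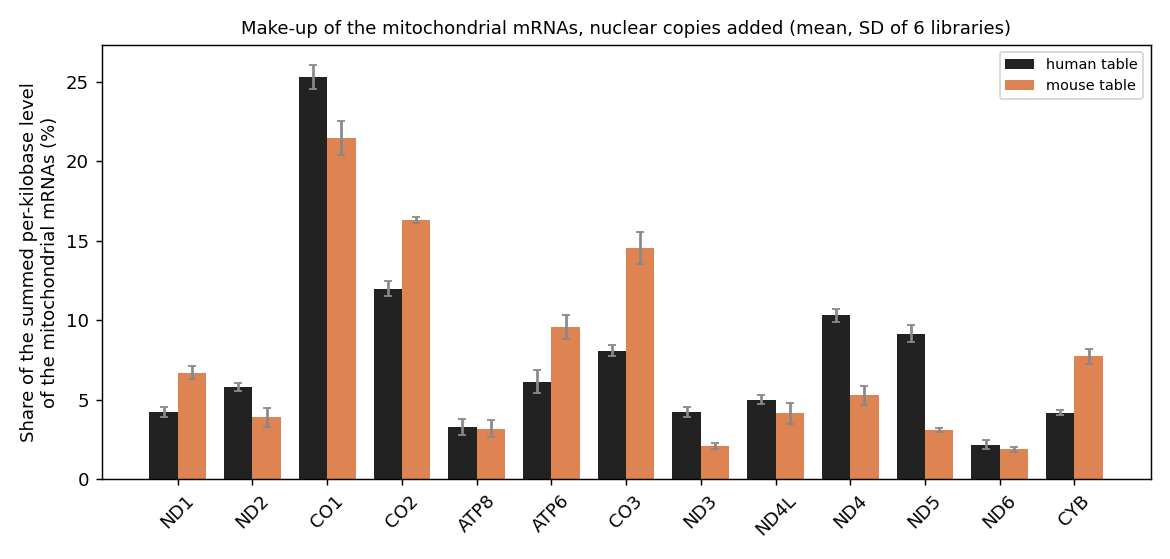
Share of each mitochondrial mRNA in the summed per-kilobase level of the 13 (vertical axis from 0, in percent) in the human and the mouse table, genes in the order of the DNA (horizontal axis), with nuclear copies added. Bars are means and whiskers the SD of 6 libraries. ND4 and ND5 had the larger part in the human table, and CO2, ATP6, CO3 and CYB in the mouse table.

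Zelnorm was compared with control gene by gene in each table. No mitochondrial gene was called in either species by edgeR's quasi-likelihood test (adjusted p under 0.05), and none had an unadjusted p under 0.05. Over all genes the test called 0% of 18820 human genes and 0% of 14459 mouse genes, with 1.31% and 1.75% at an unadjusted p under 0.05. Limma-voom called 0 in either table and DESeq2 called 1 human and 6 mouse genes.

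Of the 37 human members 18 passed the filter on low counts, and 0 of these had groups that did not overlap. Over all human genes 2.52% had every Zelnorm library above every control and 2.31% had every one below. Among the 13 mRNAs 10 estimates lay above 0 and 3 below, with a median log2 fold change of 0.053 beside a median of -0.0024 over all genes, of which 49.1% lay above 0 and 50.9% below. Levels from here on are CPM, counts scaled to the TMM-adjusted library total.

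MT-CO1 stood at 20298, 27615 and 23928 CPM in NC10, NC4 and NC9 and at 21657, 26526 and 24153 in MBZ_254, MBZ_257 and MBZ_259. NC10 was the lowest and NC4 the highest, so the controls enclosed the Zelnorm libraries. The log2 fold change was 0.0099 (SE 0.15). MT-ND5 stood at 8665, 11094 and 10323 CPM in control and 9970, 11943 and 9954 in Zelnorm, with a log2 fold change of 0.083 (SE 0.14). MT-ND4 stood at 7176, 9870 and 8494 CPM in control and 7531, 10173 and 9622 in Zelnorm, with 0.098 (SE 0.16). For both complex I genes NC10 was the lowest library and MBZ_257 the highest.

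MT-CYB stood at 2570, 3351 and 2989 CPM in control and 2492, 3352 and 3098 in Zelnorm, a log2 fold change of 0.0051 (SE 0.15). MT-ATP6 had the largest estimate of the mRNAs. It stood at 1678, 2288 and 2242 CPM in control and 1721, 2851 and 2748 in Zelnorm, with a log2 fold change of 0.24 (SE 0.20). Leaving out a library gave 0.11 (without NC10 or MBZ_257) to 0.44 (without MBZ_254). MBZ_257 and MBZ_259 were above all controls and MBZ_254 was among them. The other 8 mRNAs ranged from -0.060 (MT-ND3, SE 0.16) to 0.097 (MT-ND6, SE 0.15).

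The human mRNAs moved together from tumour to tumour and across the groups. With copies added, 12 of 13 were lowest in NC10, and 10 of 13 were highest in MBZ_257. The other 3 were highest in NC4.

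The rRNAs had the larger human estimates. MT-RNR2, the large ribosomal RNA, stood at 5197, 5789 and 7141 CPM in NC10, NC4 and NC9 and at 5688, 7544 and 12843 in MBZ_254, MBZ_257 and MBZ_259. MBZ_259 was far above the rest, and MBZ_254 lay within the controls. The log2 fold change was 0.52 (SE 0.26), with an unadjusted p of 0.0760 and an adjusted p of 1.00 (edgeR). Without MBZ_259 it was 0.13 (SE 0.18), and without MBZ_254 it was 0.76 (SE 0.23). MT-RNR1, the small ribosomal RNA, stood at 591, 705 and 734 CPM in control and 672, 815 and 932 in Zelnorm, a log2 fold change of 0.25 (SE 0.15). It ranged from 0.14 without MBZ_259 to 0.37 without MBZ_254.

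Of the 37 mouse members 15 passed the filter, all of them rRNAs and mRNAs, and 0 of them had groups that did not overlap. Over all mouse genes 2.52% had every Zelnorm library above every control and 3% had every one below. With copies added, 2 of 13 mRNA estimates lay above 0 and 11 below, with a median log2 fold change of -0.071. Over all genes tested the median was 0.019, with 53.9% above 0 and 46.1% below.

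With its partial copy added, mt-Co1 stood at 4348, 4050 and 4200 CPM in NC10, NC4 and NC9 and at 4373, 2983 and 5429 in MBZ_254, MBZ_257 and MBZ_259. MBZ_257 was below all controls and MBZ_259 above them. The log2 fold change was 0.021 (SE 0.25). For mt-Co2 the values were 1452, 1335 and 1527 CPM in control and 1354, 1011 and 1863 in Zelnorm, with -0.029 (SE 0.24). For mt-Co3 they were 1556, 1212 and 1538 CPM in control and 1485, 1051 and 1891 in Zelnorm, with 0.040 (SE 0.25). The 3 oxidase genes thus shared the same lowest and highest library.

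For mt-Cytb the values were 1096, 1089 and 1276 CPM in control and 1012, 754 and 1613 in Zelnorm, with a log2 fold change of -0.034 (SE 0.28). For mt-Nd4 they were 935, 1039 and 968 CPM in control and 843, 547 and 1318 in Zelnorm, with -0.12 (SE 0.30). The spread of these Zelnorm libraries was several times that of the controls. With copies added, all 13 mouse mRNAs were lowest in MBZ_257 and highest in MBZ_259 of the 6 libraries. The lowest of the 13 fold changes with copies added was that of mt-Nd6, at -0.20 (SE 0.23).

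As deposited, the rows whose copies held most counts of the pair gave fold changes with wide errors. They were 0.97 (SE 1.65) for mt-Co2, 0.97 (SE 1.14) for mt-Atp6 and 0.32 (SE 1.14) for mt-Co3. A single library decided these values. When a library was left out, mt-Atp6 ranged from 0.31 to 1.85 (lowest without MBZ_259, highest without NC4) and mt-Co3 from -0.27 (without NC10) to 0.78. For mt-Co2 the range was 0.40 to 1.55 as long as NC9 stayed in. Without NC9 both remaining controls were at 0, and the fitted value of 9.75 depends on the prior count. The estimates of mt-Co2 and mt-Atp6 turned to -0.029 and -0.050 with the copy added.

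The mouse rRNAs differed from each other. For mt-Rnr2 the values were 199, 158 and 236 CPM in control and 142, 336 and 413 in Zelnorm, with a log2 fold change of 0.59 (SE 0.37). MBZ_257 and MBZ_259 were above all controls and MBZ_254 below them. The fold change was 0.27 (SE 0.37) without MBZ_259 and 0.92 (SE 0.21) without MBZ_254. For mt-Rnr1 they were 84.3, 41.5 and 59.1 CPM in control and 57.8, 45.7 and 79.3 in Zelnorm, with -0.012 (SE 0.29).

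**Figure D5:**
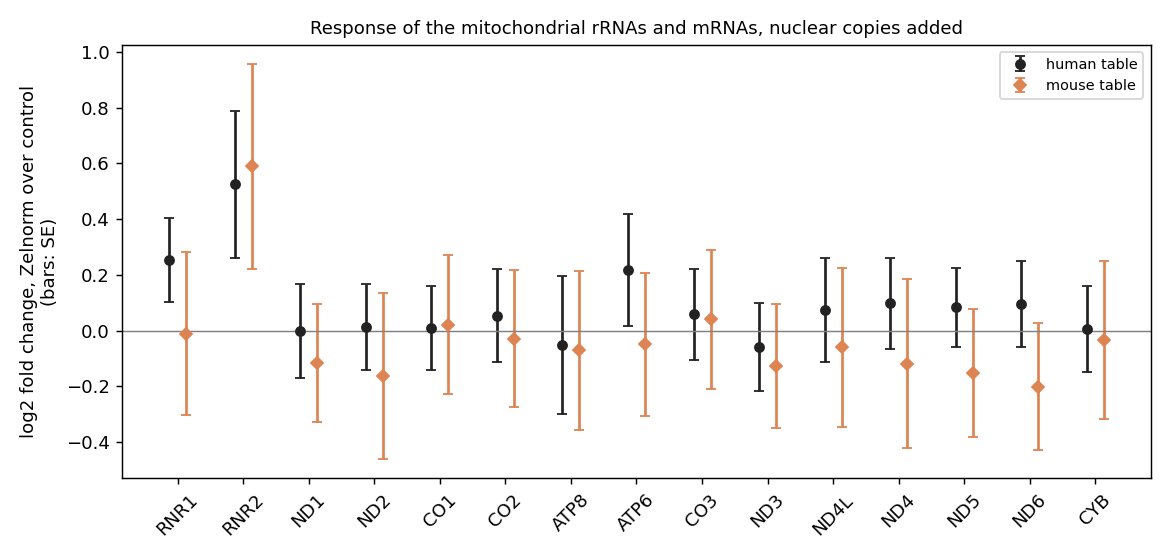
Log2 fold change of Zelnorm over control (vertical axis, bars SE) of the mitochondrial rRNAs and mRNAs (horizontal axis, in the order of the DNA) in the human and the mouse table, with nuclear copies added. The largest estimates are those of the large rRNA, 0.52 in human and 0.59 in mouse, and no gene was called.

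Whether a gene responded differently in the 2 species was tested in the same fit over pairs. It called 0% of 11130 pairs, with 1.6% at an unadjusted p under 0.05, and none of the 15 mitochondrial pairs was called. With copies added, the human minus mouse difference in log2 fold change ranged from -0.018 (SE 0.29) for MT-RNR2 to 0.33 (SE 0.29) for MT-ND6. Every one of the 15 had an adjusted p of 1.00 (edgeR, Benjamini-Hochberg). The width of these errors leaves differences of this size undetectable with 3 tumours a group.

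The mouse cells of a tumour are a mixture, and markers of cell types with different mitochondrial content varied between tumours. The 15 skeletal muscle markers, all detected, held 0.0536%, 0.373% and 0.285% of the mouse counts in NC10, NC4 and NC9, and 0.00816%, 0.0143% and 0.864% in MBZ_254, MBZ_257 and MBZ_259. They were thus highest in MBZ_259, the library with the highest mouse mitochondrial share. MBZ_254 had fewer muscle counts than any other library, and its mitochondrial share lay among the controls.

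The 10 adipocyte markers held 0.0362% to 0.108% in control and 0.0156% to 0.0326% in Zelnorm. Of the 9 tested, 9 lay below 0 and 8 had an unadjusted p under 0.05, against 1.75% of all mouse genes. None of them was called by edgeR after adjustment. The 8 fibroblast markers held 3.02% to 4.79% in control, 3.69% in MBZ_254, 1.43% in MBZ_257 and 3.16% in MBZ_259. The library with the fewest fibroblast counts, MBZ_257, was the one with the lowest mouse mitochondrial share. NC4, with the most fibroblast counts, had the lowest mitochondrial share of the controls with copies added. The 8 endothelial markers were also lowest in MBZ_257, at 0.0686%, and highest in NC4, at 0.139%. The 5 red cell markers held 0.0302% to 0.0436% in Zelnorm and 0.0358% to 0.180% in control, with 5 of 5 below 0, 2 at an unadjusted p under 0.05 and none called (edgeR). The 10 macrophage markers varied little, from 0.247% to 0.327%, and brown fat markers, with Ucp1 among them, held at most 0.000765%. The part of these cell types in the mitochondrial values was not tested.

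The human table held markers, mainly collagens, that DU145 cells, an epithelial line, are not known for. The 8 markers of human fibroblasts, endothelium and blood held 0.0637%, 0.121% and 0.0629% in NC10, NC4 and NC9 and 0.0976%, 0.0264% and 0.0713% in MBZ_254, MBZ_257 and MBZ_259. Of these 8 markers 4 passed the filter on low counts. COL1A1, the main collagen of connective tissue, stood at 639 CPM ± 243 (SD, n = 3) in control, and COL3A1, another collagen, at 183 ± 116. The endothelial marker PECAM1 and the blood cell marker PTPRC were low, at 2.62 ± 0.766 and 0.886 ± 0.285 CPM in control. The order of the libraries, with NC4 highest and MBZ_257 lowest, was that of the fibroblast markers in the mouse table. The 7 epithelial markers chosen for DU145 held 0.431% to 0.543%. Whether reads of 1 species were counted in the table of the other was not tested.

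The nuclear genes that serve mitochondrial DNA were followed from gene lists. Of 7 human genes that maintain mitochondrial DNA 5 lay above 0 and 2 below, with a median log2 fold change of 0.027. TFAM, which packages mitochondrial DNA and starts its transcription, stood at 43.6 CPM ± 6.74 (SD, n = 3) in control and 45.9 ± 4.18 (SD, n = 3) in Zelnorm. Of 23 tested genes for transcription and RNA processing in mitochondria, 14 lay above 0 and 9 below, with a median of 0.028. SLIRP, which stabilises mitochondrial mRNAs, had the largest estimate among those named, 0.27 (SE 0.18).

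The nuclear partners of the 13 proteins lay mostly above 0 in the human table. This held for 31 of 37 complex I subunits (median log2 fold change 0.076), 9 of 9 complex III subunits (0.10), 10 of 10 cytochrome c oxidase subunits (0.10) and 13 of 15 ATP synthase subunits (0.079). The same was true of 3 of 4 subunits of complex II (median 0.022), which has no mitochondrially encoded member, and 58 of 78 mitochondrial ribosomal proteins (0.042). None was called. Over all human genes tested 49.1% lay above 0. The Zelnorm libraries did not move as one. Complex I subunits held 0.166% of the human counts in MBZ_254, below all controls, and 0.204% and 0.193% in MBZ_257 and MBZ_259, above them. MBZ_254 was also lowest for complex III, cytochrome c oxidase, ATP synthase and the mitochondrial ribosomal proteins. Single estimates were 0.24 (SE 0.12) for NDUFA7 of complex I, 0.19 (SE 0.13) for UQCR11 of complex III, 0.18 (SE 0.15) for COX7C of cytochrome c oxidase and -0.28 (SE 0.17) for ATP5F1D of ATP synthase.

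For the mouse, of 37 complex I subunits 22 lay above 0 (median log2 fold change 0.054), 9 of 9 complex III subunits (0.020), 7 of 10 cytochrome c oxidase subunits (0.040), 13 of 15 ATP synthase subunits (0.045) and 3 of 4 complex II subunits (0.025). Over all mouse genes tested 53.9% lay above 0. Of the 78 mitochondrial ribosomal proteins 34 lay above 0 and 44 below, with a median of -0.022. Of 24 tested genes for transcription and RNA processing, 13 lay above 0 and 11 below. None was called.

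Of 7 mouse genes that maintain mitochondrial DNA, 6 lay above 0. Mgme1, an exonuclease that acts when mitochondrial DNA is copied, stood at 4.17, 2.33 and 2.61 CPM in NC10, NC4 and NC9 and at 5.59, 5.92 and 6.63 in MBZ_254, MBZ_257 and MBZ_259. Every Zelnorm library was above every control, as for 2.52% of all mouse genes. The log2 fold change was 1.00 (SE 0.33), with an unadjusted p of 0.0157 and an adjusted p of 1.00 (edgeR). Its human counterpart MGME1 had 0.027 (SE 0.15), and in the fit over pairs the human minus mouse difference was -1.02 (SE 0.29). Its unadjusted p was 0.00571 and its adjusted p 1.00 (edgeR), so it was not called. Polg2, of the same list, went the other way, at 3.85, 4.02 and 4.89 CPM in control and 3.05, 3.15 and 3.31 in Zelnorm. Its Zelnorm libraries were all below the controls, as for 3% of all mouse genes, and its log2 fold change was -0.42 (SE 0.30).

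Regulators of mitochondrial biogenesis lay above 0 for 9 of 12 tested human genes (median log2 fold change 0.038) and 12 of 12 mouse genes (0.17). Over all genes tested 49.1% of human and 53.9% of mouse genes lay above 0. MYC, a transcription factor of growth, stood at 66.2, 63.1 and 60.1 CPM in control and 57.1, 81.4 and 116 in Zelnorm. Its highest library, MBZ_259, was also that of MT-RNR2, while its lowest was MBZ_254 and that of MT-RNR2 was NC10. A link between them was not tested. The log2 fold change of MYC was 0.43 (SE 0.21), and that of mouse Ppargc1b, a coactivator of mitochondrial genes, was 0.77 (SE 0.36).

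Among genes of mitochondrial stress and protein quality control, 12 of 14 human and 13 of 14 tested mouse genes lay above 0, with medians of 0.078 and 0.24. Over all genes tested 49.1% of human and 53.9% of mouse genes lay above 0. The summed share of the list was lowest in MBZ_254 in both tables, at 0.155% (human) and 0.125% (mouse). In MBZ_257 and MBZ_259 it was above all controls, at 0.189% and 0.197% (human) and 0.181% and 0.166% (mouse). CHCHD10, a small protein of the space between the mitochondrial membranes, lay below 0. It stood at 11.5, 13.4 and 8.03 CPM in NC10, NC4 and NC9 and at 3.95, 6.79 and 6.81 in MBZ_254, MBZ_257 and MBZ_259. Each Zelnorm library was below every control, as for 2.31% of all human genes. The log2 fold change was -0.90 (SE 0.26), with an unadjusted p of 0.00605 and an adjusted p of 1.00 (edgeR). Without the filter on low counts its adjusted p was 0.0362 (edgeR), in a test that called 61 of 33171 genes.

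DDIT3, a transcription factor of the integrated stress response, stood at 7.63, 9.04 and 10.8 CPM in control and 10.4, 12.1 and 14.4 in Zelnorm, with a log2 fold change of 0.43 (SE 0.19). MBZ_254 lay below NC9, so the groups overlapped. Its mouse counterpart Ddit3 had 0.61 (SE 0.36), and Gdf15, a secreted stress signal, had 1.14 (SE 0.69) in the mouse and 0.45 (SE 0.27) as GDF15 in the human table. Mouse Gdf15 was low, at 0.321, 1.56 and 0.760 CPM in control and 3.18, 2.04 and 0.800 in Zelnorm, and the groups overlapped. In the fit over pairs the human minus mouse difference of GDF15 was -0.74 (SE 0.70), with an unadjusted p of 0.314 (edgeR), and was not called.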

How the data were processed

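RNA of 3 control and 3 Zelnorm tumours was sequenced from TruSeq libraries of total RNA, per the labels' protocols. The authors deposited estimated counts per gene, in a human and a mouse table. The submitters' processing notes name the builds GRCh38 and GRCm38 and the tools HISAT2, StringTie, edgeR and DESeq2, with no versions. The rule that split reads between the tables was not given in the sources used here. Column numbers match no label, so columns were tied to groups only. Of the values above 0, 37.9% of the human and 26.5% of the mouse were not whole numbers. Since the planned tests need whole counts, values were rounded first. Rows without a gene name (0.317% to 0.518% of a library) stayed out of totals and tests. Depth in named genes was 24495364 to 39102850 counts per library (human) and 5798742 to 9185279 (mouse).

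Groups were compared with edgeR 4.0.16 in R 4.3.3 (filterByExpr, TMM, quasi-likelihood, two-sided, Benjamini-Hochberg over all tested genes, called under 0.05). The SE was derived from the F statistic. Species were compared over same-symbol pairs with the library as a block, each table scaled by its own TMM factors. Copies were found with blastn 2.17.0 on the GENCODE vM21 transcripts. The scripts were tested on simulated data. Intervals are 95% Wilson intervals, and these and the limit of 3 counts cover counting error only. Members and gene lists were chosen with earlier results of these data known. Named were all protein-coding and rRNA members, the 4 tRNAs with most counts, up to 4 genes of smallest p per list, of which the text gives some, and the 3 largest human copies. Marker lists give sums, with COL1A1, COL3A1, PECAM1 and PTPRC named. Alternatives were library totals without TMM, TMM without mitochondrial rows, no filter, limma-voom 3.58.1, DESeq2 1.42.0, leaving out each library, and copies added to their gene, the last chosen after seeing the data.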

Additional observations from a re-analysis of the deposited data

How the results depend on the processing

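No call of a mitochondrial gene between the groups was gained under any alternative at the adjusted threshold. Without MBZ_254 the unadjusted p was 0.00923 for MT-RNR2, 0.0260 for MT-ATP6, 0.0342 for MT-RNR1 and 0.00283 for mt-Rnr2, with adjusted p of 1.00 for the human genes and 0.75 for mt-Rnr2 (edgeR). The comparison of levels between the tables was rerun with library totals, with copies added and without each library, and all 15 stayed called higher in the human table in these. It was not run with the other alternatives. Over all genes the test without a filter called 61 human and 2 mouse genes and DESeq2 called 1 and 6, against 0. The difference in response called 0 pairs, and 0 to 2 when a library was left out, with 2 only without MBZ_259. That of MT-CO2 reached -10.79 without NC9, where both controls of the mouse row are at 0. The human minus mouse share of CO1 in the make-up was -11.6 points as deposited and 3.80 with copies added. Several small log2 fold changes changed sign. With library totals MT-ND2 was -0.0020, MT-CO1 -0.0045, MT-CYB -0.010, mt-Co1 -0.016 and the difference in response of MT-RNR2 0.0027. Without a filter MT-ND1 was 0.0062. With limma-voom MT-ATP8 was 0.0026, mt-Rnr1 0.017 and mt-Co1 -0.047. With copies added mt-Co2 was -0.029 and mt-Atp6 -0.050, and the differences in response of MT-CO2, MT-ATP6 and MT-CO3 were 0.12, 0.27 and 0.048. Leaving out a library gave these ranges of log2 fold change for human genes that changed sign: MT-ND1 -0.16 to 0.11, MT-ND2 -0.11 to 0.13, MT-CO1 -0.094 to 0.13, MT-CO2 -0.066 to 0.18, MT-ATP8 -0.30 to 0.22, MT-CO3 -0.064 to 0.18, MT-ND3 -0.17 to 0.094, MT-ND4L -0.078 to 0.21, MT-ND4 -0.0096 to 0.22, MT-ND5 -0.010 to 0.16, MT-ND6 -0.0035 to 0.21, MT-CYB -0.087 to 0.12. For mouse genes they were mt-Rnr1 -0.25 to 0.27, mt-Nd1 -0.29 to 0.068, mt-Nd2 -0.50 to 0.11, mt-Co1 -0.18 to 0.24, mt-Atp8 -0.40 to 0.16, mt-Co3 -0.27 to 0.78, mt-Nd3 -0.69 to 0.090, mt-Nd4l -0.73 to 0.62, mt-Nd4 -0.50 to 0.15, mt-Nd5 -0.37 to 0.048, mt-Nd6 -0.43 to 0.0059, mt-Cytb -0.39 to 0.20. For the difference in response they were MT-RNR1 -0.099 to 0.52, MT-RNR2 -0.21 to 0.19, MT-ND1 -0.20 to 0.39, MT-ND2 -0.20 to 0.57, MT-CO1 -0.29 to 0.23, MT-ATP8 -0.19 to 0.39, MT-ATP6 -2.11 to 0.067, MT-CO3 -2.06 to 0.27, MT-ND3 -0.15 to 0.68, MT-ND4L -0.34 to 0.74, MT-ND4 -0.11 to 0.58, MT-ND5 -0.042 to 0.51, MT-CYB -0.25 to 0.37. The cause was not tested. No paired analysis was possible because the columns carry no replicate number of the labels. These ranges show how far a single library moved an estimate in groups of 3 tumours. They are not limits of detection, so a fold change outside a range is not thereby told from 0. Human levels per length rest on mouse lengths.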
